A study of Pimephales promelas with 20 samples.

Results

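The probes described here are the 100 whose group medians were higher at each higher dose of phenanthrene in the liver of female fathead minnows, out of 15208 fish probes on the array. A probe entered when some dose group had it well above background on 4 arrays or more, and when the median of the authors' deposited log2 values was higher by at least 0.2 from control to 29 ng/L, again from 29 to 287 ng/L and again from 287 to 1006 ng/L. Of 10867 probes past the background filter, 315 met all 3 steps, and the 100 with the largest difference between 1006 ng/L and control were kept. The measured values of all 4 groups therefore chose the members, and every difference between doses given for them is a description without a test. Members are called below by their rank in that difference. Rank 1 is the largest.

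Liver RNA was hybridised to 20 one-colour Agilent arrays, 5 in each of 4 groups: controls without phenanthrene and fish held at 29, 287 or 1006 ng/L (the low, middle and high dose below). Exposure lasted 48 h, all fish were female, and Trizol-extracted total RNA carried the dye Cy3. Whether each array held a different fish is not stated in the labels, so the spread between arrays, and every p-value resting on it, may be partly technical. In bulk liver RNA, more cells of a type and more RNA per cell cannot be told apart.

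Phenanthrene is a polycyclic aromatic hydrocarbon of crude oil and combustion residues. In vertebrates the liver oxidises such compounds with cytochrome P450 enzymes and couples the products to glucuronic acid, sulfate or glutathione for excretion. Several larger hydrocarbons of this class switch on part of that machinery by binding the aryl hydrocarbon receptor, a ligand-activated transcription factor, while phenanthrene is known as a weak ligand of it. The fathead minnow (Pimephales promelas) is a small freshwater fish used widely in toxicity testing.

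None of the members could be placed in such a pathway. The array names a probe by an identifier and by the contig or sequence record it was designed from, and 0 of the 100 member names were found in the RefSeq gene table used here. Lists of detoxification genes and of markers of hepatocytes, blood cells, pancreas, ovary and gut could not be applied for the same reason, so the labelled tissue was not checked against its markers. By name alone, 94 members came from assembled contigs, against 83.5% of all tested probes, and 5 carried a sequence record number in place of a contig, against 16.2%. The letters rc, whose meaning the files do not give, stood in the names of 20 members and of 21.4% of all tested probes.

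In the deposited table the first step, from control to 29 ng/L, ranged from 0.23 to 2.71 over the members, with a median of 0.86 on the log2 scale. The second step had a median of 0.77 and a range from 0.21 to 1.66. The third step, from 287 to 1006 ng/L, was the largest of the 3 in 46 members, with a median of 1.02 and a range from 0.25 to 4.39. The first step was the largest in 26 members and the second in 28. From control to 1006 ng/L the members differed by 2.38 to 5.14, with a median of 2.74. The 20 highest ranked differed by 3.10 or more. The steps were most even in the member of rank 57, at 0.86, 0.89 and 0.93, and least even in the member of rank 1, at 0.32, 0.43 and 4.39.

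The limits of the rule fell within a continuous range. The last member kept, rank 100, differed by 2.38 in all, with steps of 0.28, 1.09 and 1.004, and the first 2 probes left out by rank both differed by 2.37. Among probes with a total at least that of the last member, some were left out by the minimum step. The closest of these to the minimum had a last step of 0.18 and a total of 2.85. The next had a middle step of 0.15 and a total of 2.40. In all, 164 detected probes differed by at least as much as the last member, and 64 of them missed a step: 40 the second, 20 the first and 8 the third, with some missing more than 1. In the opposite direction, 132 probes had medians lower by at least 0.2 at every step.

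All values from here on are log2 processed signal from the scanner output after cyclic loess normalization between arrays, unless the deposited table is named. Levels are compared between arrays within a probe, never between probes.

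Averaged over the 100 members and set to the mean of the controls, the 5 control arrays lay at -2.82, -0.34, -0.15, 0.52 and 2.79. The arrays at 29 ng/L lay at -0.80, 0.57, 0.80, 0.86 and 4.51. At 287 ng/L the values were -0.86, 0.19, 1.55, 2.06 and 3.38, and at 1006 ng/L they were -0.72, 1.5, 2.57, 4.10 and 4.53. Every group spanned more than 4 log2 units, and the groups overlapped almost throughout: the highest control lay above 3 of the 5 arrays at 1006 ng/L. The group medians were -0.15, 0.80, 1.55 and 2.57. The group means were 0 ± 2.01, 1.19 ± 1.98, 1.26 ± 1.65 and 2.40 ± 2.12 (SD, n = 5 each). The means at 29 and 287 ng/L thus lay far closer together than the arrays within either dose.

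The same difference appeared member by member. After the loess normalization, which used the same arrays as the rule, medians were still higher at each dose in all 100 members, and the group means were higher at every step in 51. The share of all tested probes with such means is not given. Between 29 and 287 ng/L the median over members of the difference of means was 0.02, and 52 members were higher at 287 ng/L. From control to 29 ng/L the median difference was 1.22 and from 287 to 1006 ng/L 1.08, beside 0.03 and 0.04 over all 10867 tested probes. From control to 1006 ng/L it was 2.41, beside -0.03 over all tested probes. The order of the medians was fixed by the rule, and the means did not follow it between the middle doses.

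The same few arrays led within each dose. Control replicate 3 was the lowest control in 85 members and control replicate 6 the highest in 94. At 29 ng/L, replicate 24 was lowest in 72 and replicate 26 highest in 97. Replicate 38 was the lowest array at 287 ng/L in 83 members, and replicate 35 the highest in 89. At 1006 ng/L, replicate 46 was lowest in 87 members and replicate 45 highest in 77. These arrays crossed the doses: 29 ng/L replicate 26 lay above the mean of the 1006 ng/L arrays in 95 members, control replicate 6 did so in 83, and 1006 ng/L replicate 46 lay below the control mean in 84.

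The spread within groups was wide for this array. The within-group SD had a median of 2.23 over the members, ranging from 0.66 to 2.97. Over the 10677 tested probes with a value on every array its median was 0.72. In 85 members the SD was above 1.80, the 95th percentile of those 10677 probes. The rule kept the largest differences of medians without regard to spread, which by itself favours probes with a large SD. The comparison with all tested probes is therefore a description. A single member ranged over a median of 8.19 log2 units across the 20 arrays, and over 5.93 across the 5 controls alone. For 90 members that range within the controls was larger than the deposited difference of medians between 1006 ng/L and control.

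The member of rank 7 shows the common pattern. Its controls lay at 8.72, 12.66, 13.24, 14.40 and 17.14. The low dose gave 11.31, 12.55, 14.23, 15.07 and 18.13, the middle dose 12.52, 13.63, 15.59, 15.68 and 18.37, and the high dose 11.94, 14.61, 16.65, 18.12 and 18.28. Each phenanthrene dose thus reached from below the control mean of 13.23 to above the highest control. The means were 13.23 ± 3.05, 14.26 ± 2.61, 15.16 ± 2.24 and 15.92 ± 2.67 (SD, n = 5 each), so that each step between neighbouring doses was smaller than the SD within either.

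Rank 57, the member with the most even steps of deposited medians, overlapped as widely. Control values were 3.46, 3.49, 4.07, 5.48 and 7.80, and values at 29 ng/L were 3.67, 3.79, 4.94, 5.77 and 9.09. At 287 ng/L they were 4.12, 4.22, 5.87, 6.30 and 7.82, and at 1006 ng/L 2.91, 6.19, 6.75, 8.37 and 8.74. Its lowest value of all 20 was from a 1006 ng/L array and its highest from a 29 ng/L array. Group means were 4.86 ± 1.84, 5.45 ± 2.21, 5.67 ± 1.55 and 6.59 ± 2.32 (SD, n = 5 each).

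Ranks 3 and 11 are the only members that share a contig number. In rank 3 the controls lay at 6.06, 10.86, 10.96, 12.39 and 15.71 and the 1006 ng/L arrays at 10.02, 13.60, 15.20, 16.66 and 16.91. In rank 11 the controls lay at 6.49, 10.80, 10.87, 12.26 and 13.92 and the 1006 ng/L arrays at 9.40, 13.17, 14.09, 15.42 and 16.54. In both, control replicate 3 was the lowest array of all 20 and 1006 ng/L replicate 46 the lowest at its dose. After removal of group means the pair correlated at 0.98 over 20 arrays, and the 95th percentile over all pairs of members was also 0.98. Whether its 2 members are independent measurements was not tested, and they are not taken as such. The contig number belonged to 4 tested probes in all, and in the other 2 the group means did not rise at every step.

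Most members varied together between arrays of the same dose. Over the 20 arrays with group means removed, the 4950 pairs of members had a median Pearson correlation of 0.90, with 25th and 75th percentiles of 0.77 and 0.95, and 94.5% of pairs lay above 0. Pairs of the 10677 tested probes with a value on every array had a median of -0.01, with 5th and 95th percentiles of -0.53 and 0.56. The removal of group means takes out the dose differences that chose the members, but the members were also chosen for large differences on these same arrays, and the correlations are given as a description. All members share the same 20 arrays and so the same RNA, slide and brightness.

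By their median correlation with the other members, 94 members lay at 0.54 or above, with a median of 0.92, and 6 lay between -0.33 and 0.36. A dividing value of 0.5 was chosen after these values were seen. Outside the 100, the shared pattern reached further: 333 tested probes correlated at 0.9 or above with the mean of the 94, of which 79 were members and 254 were not. Of the 333, 141 met all 3 steps of the rule and 204 had medians that were higher at each dose by any amount. Both counts include the 79 members, which met the steps by the rule itself. Of all 10867 tested probes, 315 met all 3 steps. Nothing is read from these counts. Of the 10677 tested probes with a value on every array, 18.0% correlated with the mean of the 94 at 0.5 or above, and 2 probes at -0.9 or below.

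From control to the highest dose, the 94 co-varying members had group means of 0 ± 2.14, 1.18 ± 2.08, 1.27 ± 1.76 and 2.37 ± 2.27 (SD, n = 5 each). The other 6, which hold ranks 1, 4, 54, 63, 66 and 67, had means of 0 ± 0.50, 1.35 ± 0.40, 1.21 ± 0.37 and 2.83 ± 0.47. Their 6-member average ran from -0.65 to 0.71 over the controls and from 1.02 to 2.03 over the arrays of the low dose. It ran from 0.64 to 1.68 over those of the middle dose and from 2.24 to 3.37 over those of the high dose. The highest dose lay apart from all other groups in that average and the 2 middle doses overlapped. The rule chose these members for high medians at 1006 ng/L, so that separation is only a description. Singly, 0 members had every 1006 ng/L array above every 287 ng/L array. The 6 were set aside for their low correlation, and an average over probes that do not vary together can be narrower than the probes themselves, so the spreads of both sets are not compared further.

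Rank 4 (probe UF_Ppr_AF_112748) lay above its controls on every array of every phenanthrene dose. Its control values were 6.47, 6.87, 7.13, 7.56 and 7.82. The low dose gave 9.07, 9.19, 9.25, 9.41 and 10.21, the middle dose 8.51, 8.99, 9.36, 9.74 and 11.75, and the high dose 10.57, 11.14, 11.27, 11.63 and 11.79. It was the only member in which all arrays at 29 ng/L lay above all controls, as they did in 0.386% of all tested probes. For 287 ng/L over control that share is not given, and nothing is read from the separation there. Group means were 7.17 ± 0.54, 9.43 ± 0.45, 9.67 ± 1.25 and 11.28 ± 0.47 (SD, n = 5 each). The difference between 1006 ng/L and control was 4.11, while 29 and 287 ng/L differed by less than the SD at 287 ng/L. On slide 2 the control lay at 7.56 and the 1006 ng/L array at 11.79. The same order on every slide that held both groups follows from the separation over all arrays and adds nothing to it.

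Rank 68 (probe UF_Ppr_AF_104381) had the smallest within-group SD of any member, 0.66. Controls lay at 9.77, 10.23, 10.24, 10.41 and 10.83, and arrays at 29 ng/L at 10.58, 10.79, 11.00, 12.33 and 12.70. At 287 ng/L it measured 11.16, 11.54, 11.65, 11.78 and 12.01, and at 1006 ng/L 11.71, 11.97, 12.85, 13.08 and 13.44. All arrays at 287 and at 1006 ng/L lay above every control, and both doses overlapped with 29 ng/L. The share of all tested probes with 287 ng/L fully above control is not given, so nothing is read from that separation. Means were 10.30 ± 0.38, 11.48 ± 0.97, 11.63 ± 0.31 and 12.61 ± 0.74 (SD, n = 5 each). Its median correlation with the other members was 0.70, so it belongs to the co-varying 94.

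In the member of rank 1 the difference came at the highest dose. Values were 0.79 to 2.44 in controls, with a median of 1.74, and at 287 ng/L they were 0.14, 1.52, 2.24, 3.14 and 3.17. At 29 ng/L 4 arrays lay between 0.60 and 2.33 and replicate 25 at 6.48. At 1006 ng/L the values were 1.01, 6.41, 6.91, 8.45 and 8.52. The low array there, replicate 45, was the highest at that dose for 77 other members. This member was not well above background on any control, so its fold at 1006 ng/L over control is a bound. It is at least 6.61-fold, beside measured log2 means of 6.26 and 1.73. The member passed the background filter through 1006 ng/L alone, so a high value there was a condition of entry. The bound sets the mean of the 5 arrays at 1006 ng/L against the lowest signal that counted as well above background on the control arrays, or the probe's own where that was higher. Outside the rule, the 3 tested probes most like it after removal of group means correlated with it at 0.87, 0.85 and 0.82 over 20 arrays. These were picked as the highest of many correlations, so nothing is read from them.

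The set of 6 holds 4 further members. Rank 54 measured 4.70, 5.23, 5.43, 5.59 and 6.42 in controls and 7.09, 7.43, 8.34, 8.53 and 8.79 at 1006 ng/L, with no overlap. At 29 ng/L its arrays ran from 6.05 to 8.57 and at 287 ng/L from 4.13 to 7.59, so its lowest value of all was at 287 ng/L. Rank 66 measured 4.86, 4.90, 4.98, 6.04 and 6.16 in controls and 6.69, 7.20, 7.42, 7.52 and 7.97 at 1006 ng/L, again without overlap, and its 29 ng/L arrays ran from 5.93 to 7.86. Rank 63 overlapped: controls ran from 4.28 to 5.96, and at 1006 ng/L 4 arrays lay between 7.09 and 7.92 with replicate 41 at 4.14. Rank 67 overlapped too, from 1.14 to 5.21 in controls and from 3.05 to 6.39 at 1006 ng/L.

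Across all members, the full separation of 1006 ng/L from control was found in 4, ranks 4, 54, 66 and 68. Over all tested probes it was found in 244, or 2.25%. Between neighbouring doses, 1 member (rank 4) was fully separated from control to 29 ng/L, beside 42 of all tested probes (0.386%). From 29 to 287 ng/L it was 0 members beside 21 (0.193%), and from 287 to 1006 ng/L 0 members beside 59 (0.543%).

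A linear model across all 10867 tested probes, fitted with limma on all 20 arrays with Benjamini-Hochberg adjustment, called 2 members higher at 1006 ng/L than in control, ranks 4 and 68, at an adjusted p under 0.05. It called 20 of all tested probes higher, or 0.184%. In the trend over dose rank it called the same 2 members, with 26 of all tested probes upward, or 0.239%. Nothing is read from these shares, since the rule used the same contrasts. With slide as a fixed block, the call on rank 68 was lost in both and rank 4 was still called. Calls over all tested probes, in both directions, went from 22 to 1 at 1006 ng/L and from 31 to 8 in the trend. With slide as a random block, ranks 4 and 68 were called in both, and calls over all tested probes numbered 22 and 29. Scan session as a fixed block also kept both members, with 25 and 32 calls. At an unadjusted p under 0.05, 23 members passed at 1006 ng/L, beside 1416 of all tested probes (13%), and 27 in the trend, beside 1482 (13.6%). At 287 and at 29 ng/L limma called 0 members and 0 of all tested probes (0%), while 4 and 5 members, beside 592 (5.45%) and 612 (5.63%) of all tested probes, had an unadjusted p under 0.05. Without 287 ng/L replicate 27, 1 member was called at 29 ng/L, the only call among all 10867 tested probes. That array belongs to neither group compared and enters only through the spread that all groups share. Between 29 and 287 ng/L and between 287 and 1006 ng/L limma also called 0 of all tested probes (0%), with 0 and 6 members, beside 461 (4.24%) and 517 (4.76%) of all tested probes, at an unadjusted p under 0.05. Ordinary least squares, which does not moderate the variances, called 0 probes in these 4 comparisons too, and the same 2 members at 1006 ng/L. Rank 1, the member with the largest difference, was not called.

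The arrays lay on 5 slides, and slides 3 and 4 each held 2 arrays of every dose. On slide 3 the median over members of the difference from control was 1.01 for the low and 4.76 for the high dose, while 287 ng/L lay 0.21 below 29 ng/L. On slide 4 it was 3.02 for the low and 2.996 for the high dose, and 287 ng/L lay 0.09 below 29 ng/L. Within slide 3, means were higher at every step in 28 members, and within slide 4 in 13. On slide 2, which held only control replicate 6 and 1006 ng/L replicate 46, the array at 1006 ng/L was the lower in 90 members, by a median log2 difference of -4.03. These counts of members are not given over all tested probes, and most members vary together, so nothing is read from them. Slides 1 and 5 held 1 array each and give no comparison. Slides 3 and 4 made up 1 scan session and the other slides another. Beyond these values and the fits with slide or scan session as a block, the part of slide and session in the differences was not tested.

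Brightness and detection also varied between arrays. The 75th percentile of signal before normalization averaged 264 ± 70.5 in controls and then, with higher dose, 337 ± 107.2, 381 ± 109 and 362 ± 187 (SD, n = 5 each). Over the 20 arrays, its log2 correlated at 0.42 with the mean over members, and the number of probes well above background at 0.12. The first principal component of the 10677 tested probes with a value on every array correlated with that mean at 0.97. It held 29.7% of their variance. These are descriptions, and their part in the result was not tested. Detection was incomplete: 37 members were well above background on all 20 arrays and 69 on at least 4 controls. Another 31 passed the filter through a phenanthrene group but not the controls, 11 of them through 1006 ng/L alone, and a probe that passed in this way had to be brighter in some phenanthrene group. The members well above background on no control were ranks 1, 19, 25 and 26, and the last 3 have bounds at 1006 ng/L of at least 3.50-fold, 3.11-fold and 1.71-fold. Their measured log2 means were 5.43 against 2.82, 5.17 against 2.05 and 4.31 against 1.82. Ranks 1, 19, 25 and 26 all passed the filter through 1006 ng/L alone, so these folds are descriptions of probes chosen for a high value there. No member spot was saturated or missing.

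Single arrays decided which probes were among the 100 kept by the rule. When each array was left out in turn and the rule applied again, between 39 and 87 of the 100 members were again among those kept. Some of the others still met all 3 steps and were passed in rank by other probes. Without 1006 ng/L replicate 46, 78 were kept and 99 met all 3 steps. Without 287 ng/L replicate 35, 39 were kept and 39 met them. The number kept again was 69 to 87 when a control was left out. It was 70 to 86 when an array of the low dose was, and 68 to 79 when one of the high dose was. At 287 ng/L it ran from 39, when replicate 35 was left out, and 42, when replicate 36 was, to 85. Spots were dim in 10 of 96 blocks of positions on replicate 36 and in 8 on 1006 ng/L replicate 42. These dim regions held 4 and 3 members, beside 1117 and 891 of the 10867 tested probes. Leaving out both whole arrays found 42 members again, the same number as without replicate 36 alone. The part of the dim regions in this was not tested. Slide 3 alone returned 23 of the 100. Slide 4 alone returned 3 of them, among 76 probes that met the rule there. With group means in place of medians, 36 members were found again. Without the pair of arrays on slide 2 it was 72, with 98 still past all 3 steps.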

How the data were processed

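The values of 20 single-colour arrays were used. Processed intensity was extracted, background-subtracted and spatially detrended with Agilent Feature Extraction 10.7.1.1, per the file headers. A table of log2 values for all arrays, called loess normalized in the labels, was deposited by the authors, and no source used here gives its loess settings. Each of its columns correlated at 0.992 or above with the log2 processed signal of its own array. Over all its columns, 714 values of fish probes were missing, and no member lacked a value on 287 ng/L replicate 36. The table chose the members and gave the steps of medians, with 0.2 as the minimum step and at most 100 members.

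All other values came from the scanner output, with 536 control spots left out. Spots flagged there as non-uniform or as population outliers were set to missing, and 10677 of the tested probes had a value on every array. The log2 processed signal was then normalized by cyclic loess and fitted with lmFit and eBayes in R 4.3.3 with limma 3.58.1. Tests covered the 10867 probes with 4 or more arrays of some group well above background, with Benjamini-Hochberg adjustment over all of them. The fit was also run on simulated arrays with noise drawn independently for each probe. That simulation lacked the correlation between probes described above, and nothing is read from it. Python 3.11.15 with pandas 2.3.3 did the remaining steps. The number of arrays limits the precision.

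The members, lists and rules were chosen with earlier results of these data known. The naming rule took the 20 highest ranked members, those with the most and least even steps, the probes next to each limit, and members sharing a contig. Since no table pairs probes with genes, it allows at most 2 identifiers. The 2 members called at 1006 ng/L were chosen for them after their values were seen, as were ranks 54, 63, 66 and 67. Alternatives were the normalization, the step, the detection filter, means for medians, slide or scan session as a block, single slides, and leaving out arrays.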

Additional observations from a re-analysis of the deposited data

Results flagged for a closer look

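In groups of 5 arrays, 112 sets of values were looked at for a highest or lowest array far from the others (Dixon's ratio above 0.71), and 5 such sets were found. Chance gives about 5% of sets. On 1006 ng/L replicate 46, 76 members were well above background, against 95 to 100 on the other arrays of that dose. Replicate 45 of that dose had a 75th percentile of signal of 684, and its other arrays 246 to 368. On replicate 45 the member of rank 1 measured 1.01, against 6.41 to 8.52 on the other 4. The member of rank 8 measured 8.21 on 29 ng/L replicate 26, against 2.68 to 4.21. The member of rank 54 measured 8.57 on the same array, against 6.05 to 6.59.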

How the results depend on the processing

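Membership depended on arrays, normalization and choice of median or mean. Of the 100, the rule found again 51 with normexp background correction and quantile normalization, 36 with group means, 23 on slide 3 alone, 3 on slide 4 alone, 42 without 287 ng/L replicate 36 and 1006 ng/L replicate 42, and 41 in the scan session of slides 3 and 4 alone. Cyclic loess, scaling to the 75th percentile, steps of 0.1 or 0.3 and no detection filter kept 79 to 98, and detection in every group kept 67. Leaving out 1 array kept 39 to 87, with 100 members found each time. The settings by slide, by session and without replicates 36 and 42 were chosen for the rule after the data were seen, as were all session 1 settings and those without slide 2.

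Members called at 1006 ng/L numbered 2, then 1 with slide as a fixed block, 1 in session 1 alone, 1 without slide 2 and 0 on slide 3 or 4 alone. Leaving out 1 array gave 1 to 4. It was 1 (1 to 6 over all probes) without control replicate 3, 4 or 7 or high-dose replicate 41 or 44. It was 4 without replicate 26 (29 ng/L) or 27 (287 ng/L), beside 69 and 24. In the trend 2 members became 1 with the slide block and 0 on slide 3, slide 4 or session 1 alone. Leaving out 1 array gave 1 to 5. It was 1 (4 to 16 over all) without any of the same 5 arrays or replicate 45 (1006 ng/L), and 5 (106) without replicate 26. Unadjusted limma p under 0.05 held on slide 3 (1006 ng/L and trend) for 95 and 85 members, beside 1494 and 1373 of 10867 probes. It held for 22 and 14 beside 600 and 596 on slide 4, and 94 beside 1939 in the session 1 trend. Rank 4 was called at 1006 ng/L in 32 of 34 settings and rank 68 in 24. The rule and settings share these arrays, so nothing is read from these counts.

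Over all probes, 22 calls at 1006 ng/L became 12 with the 75th percentile, 48 with normexp, 1 with the slide block, 0 on slide 3, 0 on slide 4, 1 in session 1 and 1 without slide 2, and 1 to 69 with 1 array left out (69 without 29 ng/L replicate 26, 1 without control replicate 7). In the trend 31 became 18, 51, 8, 0, 0, 0 and 8 in the same order, 10 with no detection filter, 15 without replicates 36 and 42, and 4 to 106 with 1 array left out (106 without 29 ng/L replicate 26, 4 without control replicate 4). Unadjusted counts for each 0 are above.

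Medians higher at every step, 100 members, became 28 on slide 3, 13 on slide 4, 61 without replicates 36 and 42, 55 in session 1, and 59 to 100 with 1 array left out (59 without 287 ng/L replicate 35, 61 without replicate 36). The median difference at 1006 ng/L, 2.41, became 4.76 on slide 3, 4.06 in session 1 and without slide 2, 1.46 with normexp, and 1.62 to 3.29 with 1 array left out. At 287 ng/L, 1.25 became 0.62 with normexp, 0.74 on slide 3, 2.87 on slide 4 and 0.48 (without control replicate 3; 0.68 without replicate 35 of that dose) to 1.94 (without control replicate 6, or without slide 2). At 29 ng/L, 1.22 became 0.63 with normexp, 3.02 on slide 4, 1.98 in session 1 and 0.33 (without replicate 26 of that dose; 0.41 without control replicate 3) to 1.93 (without control replicate 6, or without slide 2). Where 0 probes were called, 1 array left out gave at most 1 at 29 ng/L (without replicate 27 of 287 ng/L, a member), 2 between 29 and 287 ng/L (without replicate 26) and 1 between 287 and 1006 ng/L (without replicate 32 or 45). No member was called between neighbouring phenanthrene doses. Scaling to the 75th percentile set the median of all tested probes at -0.21 at 1006 ng/L, against -0.03, and that of members at 2.21. The cause of each change was not tested. Single slides and sessions also held fewer arrays. Dim signal limits 31 members in the controls. Groups shared no replicate numbers, so no pairing was possible.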
